A study of Bos taurus with 22 samples.

Results

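IL1B and TNF encode interleukin-1 beta and tumor necrosis factor, the main inflammatory cytokines secreted by activated myeloid cells. Both genes were taken by symbol from the study's list of genes tested between Fertile and Sub-Fertile heifers, in which a symbol was at hand only for genes toward the small p-values of that contrast. They were therefore chosen on the fertility contrast, and their difference between Fertile and Sub-Fertile heifers is given as a description with no test. They are 2 of the 27607 genes deposited, and both are among the 13535 genes tested, which were above 1 CPM (the count scaled to a fixed library total) in at least 5 heifers.

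Transcript abundance was measured by RNA sequencing of white blood cells, with 1 library from each of 22 purebred heifers bled at the time of first artificial insemination. The Angus heifers averaged 14 months of age and had carried a progesterone insert for 7 days, with gonadotropin-releasing hormone and prostaglandin, before breeding. The Holstein heifers averaged 12 months and had carried the insert for 5 days with the same hormones, so breed, age and protocol cannot be told apart. Fertile heifers (5 Angus and 5 Holstein) delivered a calf from the first service. The 7 Angus Sub-Fertile heifers did not conceive after 2 services and exposure to a bull, whereas the 5 Holstein Sub-Fertile heifers needed 4 or more inseminations. The buffy coat used holds all white blood cell types together, and in such bulk libraries fewer cells of a type and less RNA per cell cannot be told apart.

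IL1B is made as an inactive precursor after Toll-like receptors or cytokine receptors activate NF-kB. Inflammasomes and caspase-1 cut the precursor, and the mature cytokine acts through the IL-1 receptor. TNF is made as a membrane protein, is shed by a metalloprotease, and signals through receptors that recruit TRAF adaptors, ubiquitin ligases and FADD. Messenger RNAs of both cytokines carry AU-rich elements and are short-lived.

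Total counts ranged from 12182400 to 49228035 per library (median 23158374). Among all pairings of heifers, 8 pairs of libraries were far more alike than the rest, with a biological coefficient of variation of 0.0377 to 0.0828 within pairs and 0.0981 to 0.261 in the other 223 pairings. These close pairs were the heifers numbered 1/11, 5/6, 7/16, 8/12, 10/18, 13/22, 14/20 and 15/19. A Holstein was paired with an Angus heifer in 4 of them, and heifers of unlike fertility were paired in 6. Nothing in the labels or methods says what the libraries of a pair share. Main differences and correlations are therefore also given with close pairs as blocks or averaged. In the blocked fits each heifer outside a pair was its own block, so those values rest on differences within the pairs alone. Genes of the expected white blood cells were present, among them CSF3R of neutrophils (mean 283 CPM) and BANK1 of B cells (mean 352 CPM), together with the platelet gene ITGA2B (mean 44.7 CPM). Markers of monocytes, a main source of both cytokines, carried no symbol in the tables used and were not analysed here.

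The abundance of IL1B (ENSBTAG00000001321, ARS-UCD1.2 chromosome 11, 46543394 to 46552101) differed 6.23-fold between the lowest and the highest heifer. In Holstein Sub-Fertile heifers 1 to 5 it was 26.1, 23.3, 60.6, 33.3 and 62.3 CPM. In Holstein Fertile heifers 6 to 10 it was 42.5, 21.5, 10.4, 23.7 and 27.1 CPM. Each Holstein group thus held heifers within the range of the other, with heifers 3 and 5 above and heifers 7 and 8 below it. In Angus Sub-Fertile heifers the lowest, median and highest values were 19.8, 27.1 and 65.0 CPM (heifers 14, 15 and 16). In Angus Fertile heifers 18 to 22 the values were 27.1, 30.8, 22.9, 12.8 and 35.8 CPM. The Angus groups overlapped as well: 3 Sub-Fertile heifers lay above all Fertile heifers and 1 Fertile heifer, number 21, lay below all Sub-Fertile heifers. These values rest on 156 to 2174 counts per library, and the 95% Poisson half-width, which covers counting error only, was 4.23% to 16.03%.

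TNF (ENSBTAG00000025471, ARS-UCD1.2 chromosome 23, 27716168 to 27719047) covered a 1.89-fold range across the same heifers. It was 30.2, 35.9, 30.9, 32.0 and 25.6 CPM in Holstein Sub-Fertile heifers 1 to 5. In Holstein Fertile heifers 6 to 10 it was 25.8, 31.1, 22.8, 26.5 and 20.1 CPM. The 2 highest Holstein Sub-Fertile heifers lay above all Holstein Fertile heifers, and the other 3 lay within their range. The lowest, median and highest values of Angus Sub-Fertile heifers were 26.2, 28.6 and 31.9 CPM. In Angus Fertile heifers 18 to 22 they were 19.003, 25.9, 29.8, 30.0 and 30.3 CPM. All but heifers 18 and 19 were within the Angus Sub-Fertile range. The 2 lowest values of TNF in the series, in heifers 10 and 18, came from 1 close pair of libraries. TNF had 362 to 1521 counts per library, a Poisson half-width of 5.06% to 10.4%.

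**Figure D1:**
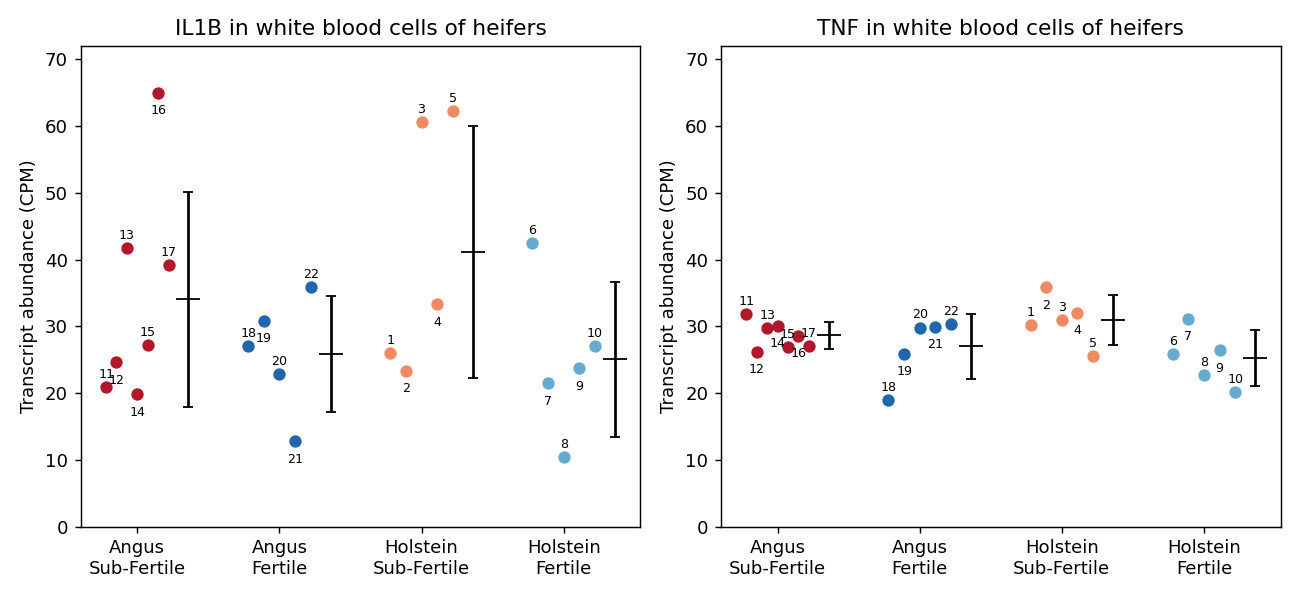
Transcript abundance of IL1B (left) and TNF (right) in CPM for each heifer, with the heifer number beside its point, and the mean and SD of each group as a bar (7 Angus Sub-Fertile heifers, 5 in each other group). IL1B runs from 10.4 to 65.0 CPM and TNF from 19.003 to 35.9 CPM, and the Fertile and Sub-Fertile heifers of each breed overlap for both genes.

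The spread among heifers of the same group was wide for IL1B and ordinary for TNF. On the log2(CPM + 1) scale the within-group SD of IL1B was 0.625, larger than that of 96.9% of the tested genes. Among 4461 genes at 0.5 to 2 times its mean abundance, 98.2% had a smaller SD, and their median SD was 0.174. The within-group SD of TNF was 0.195, larger than that of 57.8% of 4370 genes of like abundance. IL1B thus varied several times more than a typical gene of its level, whereas TNF lay close to the median of 0.179.

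**Figure D2:**
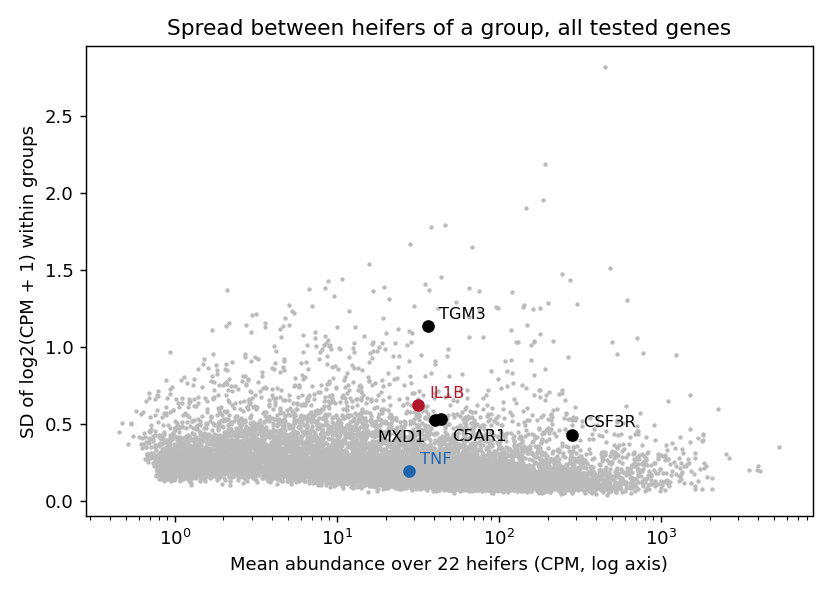
SD of log2(CPM + 1) within the 4 groups against mean abundance over 22 heifers (CPM, log axis) for each tested gene in grey, with IL1B in red, TNF in blue and 4 neutrophil or myeloid genes in black. IL1B (SD 0.625) lies near the upper edge of genes of its abundance beside MXD1 and C5AR1, and TNF (SD 0.195) lies in the bulk.

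The study compared Fertile with Sub-Fertile heifers to find transcripts related to pregnancy outcome. The order of group means of IL1B ran from Holstein Sub-Fertile (41.1 ± 18.9 CPM, SD, n = 5) through Angus Sub-Fertile (34.1 ± 16.1, n = 7) and Angus Fertile (25.9 ± 8.73, n = 5) to Holstein Fertile (25.05 ± 11.6, n = 5). For TNF it ran from 30.9 ± 3.71 through 28.6 ± 2.05 and 26.99 ± 4.81 to 25.3 ± 4.15 CPM in the same groups. Neighbours in the order of IL1B differed by less than either SD. The same held for TNF except that the Holstein and Angus Sub-Fertile means differed by more than the SD of the Angus group and less than that of the Holstein group. The place of Angus Fertile heifers rested on heifer 18 for TNF: without it their mean was 28.99 CPM, above that of Angus Sub-Fertile heifers, and their median with it (29.8 CPM) was already above the Angus Sub-Fertile median (28.6 CPM). For IL1B, leaving out heifer 7, 8, 19 or 22 exchanged the places of the 2 Fertile groups.

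The Fertile to Sub-Fertile ratio of means was 0.760 in Angus and 0.609 in Holstein heifers for IL1B. For TNF the ratio was 0.942 in Angus and 0.817 in Holstein heifers. Across breeds, the fitted fertility difference (log2, Fertile minus Sub-Fertile) was −0.53 (SE 0.253) for IL1B and −0.18 (SE 0.0850) for TNF, the values on which the genes were chosen. Over all tested genes, 2.62% had an unadjusted p under 0.05 for fertility and 0% passed after Benjamini-Hochberg adjustment with the edgeR quasi-likelihood test or with DESeq2. With close pairs as blocks the log2 fold change was −0.34 (SE 0.250) for IL1B and −0.01 (SE 0.0518) for TNF. Without heifers 10 and 18 that of TNF was −0.09 (SE 0.0710), while that of IL1B was −0.55 (SE 0.287).

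Whether the fertility difference itself depended on breed was not used to choose the genes and was tested. The log2 fold change in Holstein heifers minus that in Angus heifers was −0.33 (SE 0.513) for IL1B, with an adjusted p of 0.820 in the edgeR quasi-likelihood test. For TNF the interaction was −0.21 (SE 0.168, edgeR adjusted p = 0.632). Neither interaction passed the test. Over all tested genes, 10.4% had an unadjusted p under 0.05 for this term and 0% passed after adjustment with either edgeR or DESeq2. Among the 1227 tested genes with a symbol, which lay toward small fertility p-values, the unadjusted share was 5.46%. The choice of the genes was thus not unrelated to this term. With close pairs as blocks the interaction of TNF was 0.07 (SE 0.108), opposite in sign. That of IL1B stayed between −0.66 and −0.29 over 8 alternatives, these blocks among them. Without any 1 heifer the interaction of IL1B ranged from −0.60 to −0.14.

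Holstein and Angus heifers had near-equal means of both cytokines. IL1B averaged 33.1 ± 17.05 CPM in 10 Holstein heifers and 30.7 ± 13.7 CPM in 12 Angus heifers. TNF averaged 28.1 ± 4.76 CPM and 27.96 ± 3.38 CPM in the same heifers. The log2 fold change of Holstein over Angus, with fertility group in the model, was 0.13 for IL1B (SE 0.250, 95% interval −0.37 to 0.62, edgeR adjusted p = 0.867). For TNF it was 0.02 (SE 0.0848, 95% interval −0.15 to 0.18, edgeR adjusted p = 0.959). A two-sided exact permutation of breed within fertility groups, over all 199584 regroupings, gave p = 0.717 for IL1B and p = 0.859 for TNF, or 0.859 for both after adjustment over the 2 genes. The permutation took each heifer as separate and did not keep close pairs together. Over all tested genes 10.6% had an unadjusted p under 0.05 for breed, and 0% passed after adjustment (0.0739% with DESeq2, neither cytokine among them). Each interval still admits a difference of about the gene's own within-group SD (0.625 for IL1B and 0.195 for TNF on the log2 scale). The interval of TNF is thus narrower only in absolute terms. The sign of either breed difference was not fixed: with close pairs as blocks the log2 fold change was −0.41 (SE 0.328) for IL1B and −0.01 (SE 0.0663) for TNF. These blocked values rest mainly on the 4 pairs of a Holstein with an Angus heifer, of which 7/16 and 8/12 also differed in fertility.

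No correlation between IL1B and TNF was detected among heifers. After the mean of each of the 4 groups was taken out of log2(CPM + 1), Pearson's r was −0.205 (permutation p = 0.361, n = 22) and Spearman's rho −0.211 (p = 0.345). These are 0.734 and 0.713 after Benjamini-Hochberg adjustment over the 5 relations computed. Without heifers 8 and 16, the extremes of IL1B, r was −0.366 (permutation p = 0.113), and with the libraries of each close pair averaged it was −0.301 over 14 samples (permutation p = 0.304). Ranked by r with IL1B, TNF stood at 10420 of the 13534 other tested genes. Heifers 5 and 16 had the highest IL1B of their groups (62.3 and 65.0 CPM) but not the highest TNF (25.6 and 28.6 CPM). Heifer 8 was below its group mean in both genes, at 10.4 CPM of IL1B and 22.8 CPM of TNF. No relation with depth was detected for either gene, with r of 0.122 for IL1B and 0.0506 for TNF against log2 total count (permutation p = 0.588 and 0.822).

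IL1B correlated with neutrophil genes among heifers of the same group, and no such correlation was detected for TNF. Of 16 neutrophil markers, 5 carried a symbol in the tables used: CSF3R, the receptor of granulocyte colony-stimulating factor, the protease MMP9, the transglutaminase TGM3, the granule protein PGLYRP1 and the sulfhydryl oxidase QSOX1. Their symbols came from the same list ordered by the fertility contrast, so only variation within groups was used. The within-group r of IL1B with their mean log2(CPM + 1) was 0.817, with a permutation p of 1e-05, the smallest that 100000 resamples can give, and an adjusted p of 5e-05 over the 5 relations (n = 22). Spearman's rho was 0.754 (permutation p = 0.00011, adjusted p = 0.00055). The relation held without heifers 8 and 16 (r = 0.694, permutation p = 0.00081), with close pairs averaged (r = 0.813 over 14 samples, permutation p = 0.00072), and without any 1 heifer (r from 0.764 to 0.854). For TNF, r with the same markers was 0.157 (permutation p = 0.484, adjusted p = 0.734) and rho 0.178. The difference between the 2 correlations was not tested.

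**Figure D3:**
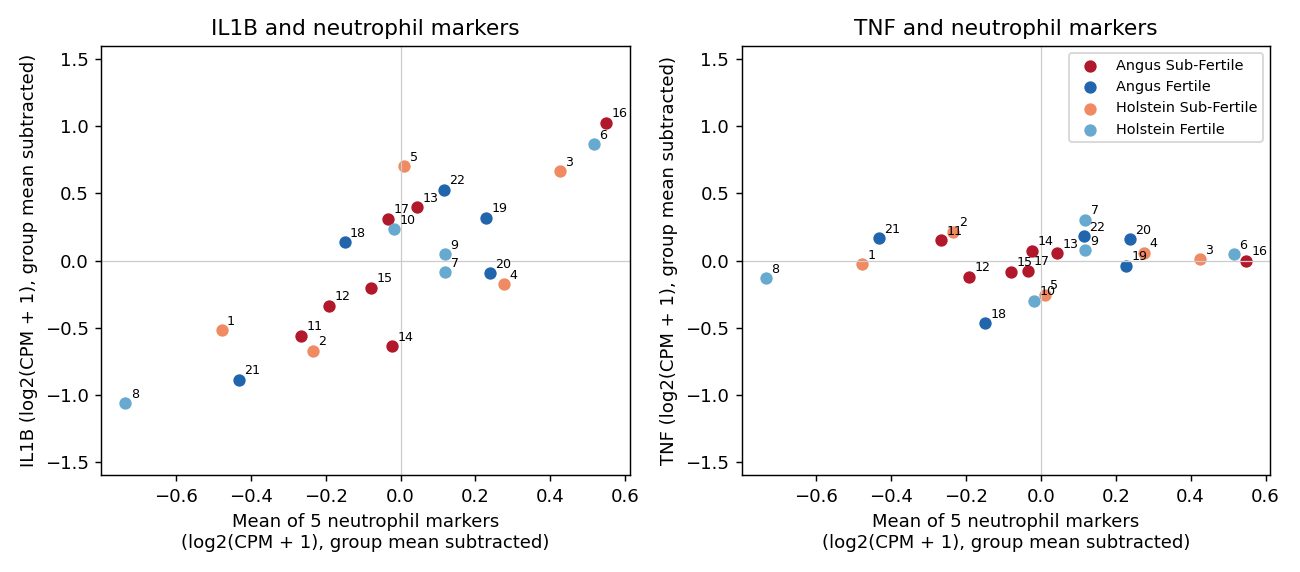
IL1B (left) and TNF (right) against the mean of 5 neutrophil markers, both as log2(CPM + 1) with the mean of each group subtracted, 1 numbered point per heifer coloured by group. IL1B climbs with the markers from heifer 8 to heifer 16 (r = 0.817), while TNF stays within a narrow band (r = 0.157).

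The 5 markers were not equal in this relation. CSF3R (r = 0.879) and TGM3 (r = 0.833) ranked 9 and 16 of all tested genes by r with IL1B over 22 heifers. MMP9 had an r of 0.348, QSOX1 of 0.0642 and PGLYRP1 of −0.408, so 2 of 5 markers carried the relation. MMP9 and PGLYRP1 averaged only 2.13 and 1.36 CPM. With TNF, MMP9 had the highest r of the 5 (0.538), followed by PGLYRP1 (0.359), whereas CSF3R (−0.0497), TGM3 (−0.0796) and QSOX1 (−0.0836) were near 0.

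Of the 5 neutrophil markers, 4 had a negative fertility log2 fold change, and QSOX1 went the other way at 0.18 (SE 0.0997). QSOX1 averaged 169.9 ± 28.5 CPM in Holstein Fertile and 129.99 ± 14.5 CPM in Holstein Sub-Fertile heifers (n = 5 each), and 141 ± 26.5 CPM (n = 5) and 141 ± 21.6 CPM (n = 7) in the Angus groups. The summed abundance of the 5, of which CSF3R was the most abundant on average, ranged from 250.3 to 506 CPM (median 408) in Holstein Fertile and from 399 to 764 CPM (median 546) in Holstein Sub-Fertile heifers. In Angus heifers it ranged from 394 to 515 CPM (median 422) in the Fertile and from 356 to 711 CPM (median 467) in the Sub-Fertile group. None of the 5 was at 0 in any library, with a lowest value of 0.366 CPM. With their mean added to the model as a term, chosen after the data were seen, the log2 fold change of IL1B for fertility went from −0.53 to 0.05 (SE 0.176). That of TNF went from −0.18 to −0.14 (SE 0.0984). CSF3R and TGM3, 2 of these markers, were also among the genes most like IL1B, so this shift partly follows from the choice of genes and is a description only. The markers and IL1B were named from the same contrast, and the part of neutrophils in it was not tested.

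Among all genes with a symbol, those most like IL1B within groups were MXD1 (r = 0.940), C5AR1 (r = 0.921), SLC16A12 (r = 0.884), CSF3R and TGM3, which ranked 2, 4, 7, 9 and 16 among the tested genes over 22 heifers. MXD1 is a repressor of the MYC and MAX network, C5AR1 the receptor of the complement fragment C5a, and SLC16A12 a membrane transporter. MXD1 ranged from 18.2 CPM in heifer 8 to 73.2 CPM in heifer 5. C5AR1 ranged from 15.01 to 75.5 CPM. With close pairs averaged, r was 0.964 for MXD1 and 0.933 for C5AR1.

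The fertility log2 fold change of these genes was −0.35 (SE 0.210) for MXD1, −0.33 (SE 0.214) for C5AR1, −0.43 (SE 0.184) for CSF3R and −0.98 (SE 0.453) for TGM3. That of SLC16A12, at a mean of 2.77 CPM, was −0.74 (SE 0.419). None passed the test for breed, with edgeR adjusted p from 0.645 (SLC16A12) to 0.995 (C5AR1).

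The genes most like TNF were the HMG-box gene TOX2 (r = 0.792), the adaptor complex subunit AP3M2 (r = 0.769), the zinc finger gene ZSCAN26 (r = 0.751), the ETS repressor ERF (r = 0.730) and the kinase MARK2 (r = 0.719). They ranked 9, 14, 20, 36 and 53 among the tested genes over 22 heifers. Their Spearman's rho was lower for AP3M2 (0.561) and ZSCAN26 (0.566) than for TOX2 (0.714). With close pairs averaged, r was 0.772 for TOX2, 0.768 for AP3M2, and 0.609, 0.631 and 0.572 for ZSCAN26, ERF and MARK2. Averaging keeps heifers 10 and 18, the lowest in TNF, as a low point. Heifer 18 was also the lowest in TOX2 (2.19 CPM), AP3M2 (5.00 CPM), ZSCAN26 (4.05 CPM) and MARK2 (210 CPM), whereas ERF was lowest in heifer 5 (36.1 CPM). How far these correlations rest on heifers 10 and 18 was not tested. The highest r over all tested genes was 0.830 with TNF and 0.953 with IL1B.

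Within the close pairs of libraries, as in the other pairings, TNF differed less than IL1B by median. The absolute log2 difference of TNF had a median of 0.0689 (highest 0.203) in the 8 pairs and 0.205 (highest 0.918) in the other pairings. For IL1B the median was 0.267 in the pairs, with a highest difference of 1.599, and 0.649 in the other pairings. Heifers 7 and 16 had 21.5 and 65.0 CPM of IL1B, a 3.03-fold difference larger than that of 99.9% of tested genes between these libraries. Heifers 8 and 12 had 10.4 and 24.6 CPM, a 2.36-fold difference larger than that of 99.8% of genes. In the same 2 pairs TNF differed 1.09-fold and 1.15-fold, more than 47.0% and 80.8% of tested genes did.

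These 2 pairs had the largest differences of IL1B among the 8, and the genes most like IL1B were chosen over the same heifers, so their values in the pairs are a description only. Heifer 16 exceeded heifer 7 by 2.22-fold in CSF3R, 4.77-fold in TGM3, 1.85-fold in MXD1, 1.85-fold in C5AR1 and 3.03-fold in SLC16A12. Heifer 12 exceeded heifer 8 by 1.80-fold, 5.49-fold, 1.65-fold, 1.96-fold and 3.67-fold in the same genes. In other pairs the genes went apart. CSF3R differed 1.003-fold between heifers 13 and 22, where IL1B was 41.7 and 35.8 CPM. TGM3 was 12.3 CPM in heifer 1 and 13.2 CPM in heifer 11, whereas IL1B was higher in heifer 1 (26.1 and 20.9 CPM). Heifers 10 and 18 showed the reverse, with equal IL1B (27.1 CPM in both) and the lowest TNF. Of the 6 pairs of a Fertile with a Sub-Fertile heifer, IL1B was lower in the Fertile heifer in 4 and TNF in 3. Of the 4 pairs of a Holstein with an Angus heifer, each cytokine was lower in the Holstein heifer in 2.

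**Figure D4:**
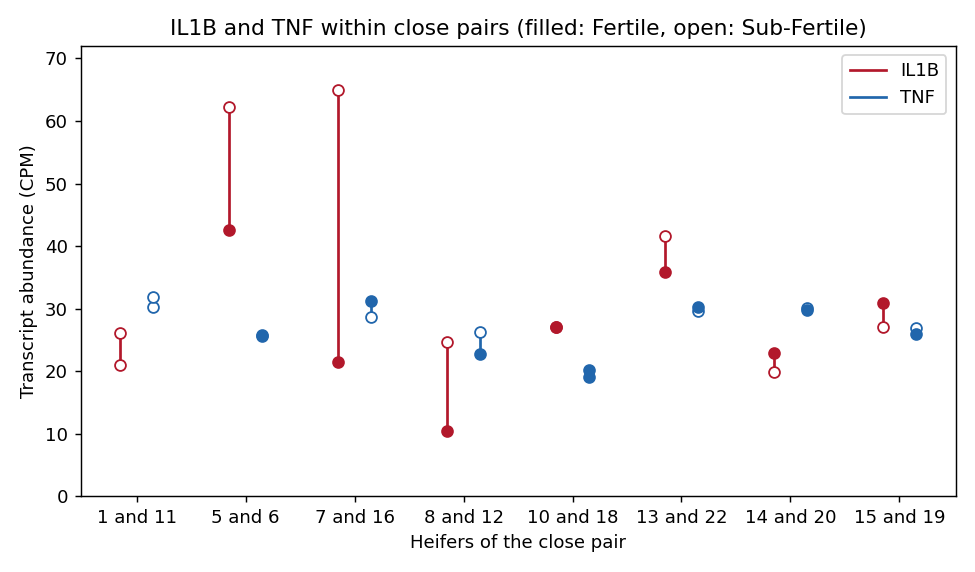
IL1B (red) and TNF (blue) in CPM for the 2 libraries of each close pair, joined by a line, with filled points for Fertile and open points for Sub-Fertile heifers. The lines of IL1B are long in the pairs 7 and 16 (21.5 and 65.0 CPM) and 8 and 12 (10.4 and 24.6 CPM), and those of TNF are short in all 8 pairs.

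Genes around the cytokines were read from 20 lists of 296 genes, of which 24 besides IL1B and TNF carried a symbol. No receptor of the IL-1 or TNF families, immediate early gene, monocyte, natural killer or red cell marker was among them, and these lists were not analysed here. Since symbols followed the fertility contrast, signs and counts for fertility are a description. Of the 24, 8 were higher and 16 lower in Fertile heifers, and none passed adjustment over all tested genes. Among all 1227 tested genes with a symbol, 705 were higher and 522 lower, and among all tested genes 6634 and 6900. For breed, 14 of the 24 were higher and 10 lower in Holstein heifers, with a median log2 fold change of 0.05 beside −0.01 over all tested genes. The genes with a symbol split into 693 higher and 534 lower, and all tested genes into 6209 and 7326. None of the 24 passed adjustment for breed. An unadjusted p under 0.05 was reached by 5 of 24 (TRAF5, BIRC2, OTULIN, TLR10 and BANK1), a share like the 20.4% of all 1227 tested genes with a symbol. All 5 were higher in Holstein heifers, beside 13.3% of the genes with a symbol and 4.56% of all tested genes in that direction.

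In the IL-1 pathway upstream of the cytokine, P2RX7, the ATP-gated channel that triggers the inflammasome, averaged 3.45 CPM. Its fertility log2 fold change was 0.34 (SE 0.180), opposite in sign to that of IL1B, and its within-group r with IL1B was −0.235. TLR10, a Toll-like receptor, averaged 65.4 ± 10.2 CPM in 12 Angus and 82.9 ± 20.4 CPM in 10 Holstein heifers, and had the largest breed difference of the pathway genes (log2 fold change 0.36, SE 0.115, edgeR adjusted p = 0.437). That difference did not pass the adjusted test. MAP3K14, the kinase of the noncanonical NF-kB pathway, had the highest Pearson's r with TNF of the listed genes (0.652, rank 146 of all tested genes), but its Spearman's rho of 0.465 was below that of MMP9 (0.578). Its r with IL1B was −0.388.

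Of the 23 genes of the TNF receptor complex, 6 had a symbol. The adaptor TRAF5, the ubiquitin ligases BIRC2 and BIRC3, and OTULIN, which removes linear ubiquitin chains, had higher means in Holstein heifers, with log2 fold changes of 0.21 (SE 0.0911), 0.16 (SE 0.0594), 0.12 (SE 0.0852) and 0.20 (SE 0.0911). The death domain adaptor FADD and the TAK1 activator TAB1 had lower means, at −0.14 (SE 0.0892) and −0.14 (SE 0.0961). None passed the edgeR adjusted test for breed (adjusted p from 0.437 to 0.599), and the median over the 6 was 0.14. For fertility the same genes split in the same way with opposite signs, TRAF5 at −0.18 (SE 0.0915) and TAB1 at 0.16 (SE 0.0958) being the ends. Of the 6, BIRC3, the most abundant at a mean of 370 CPM, was the nearest to IL1B within groups (r = 0.469), and TRAF5 was the nearest to TNF (r = 0.369).

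Among targets and regulators of inflammation, ACOD1, the enzyme that makes itaconate in activated myeloid cells, had a fertility log2 fold change of −0.38 (SE 0.173) and an r of 0.361 with IL1B. In Holstein heifers it averaged 22.9 ± 6.87 CPM in the Fertile and 37.7 ± 11.9 CPM in the Sub-Fertile group (n = 5 each). In Angus heifers the means were 32.3 ± 6.20 (n = 5) and 34.4 ± 8.54 CPM (n = 7), and the interaction was −0.61 (SE 0.327, edgeR adjusted p = 0.497). ZFP36L1, which promotes the decay of AU-rich messages, had a fertility log2 fold change of −0.15 (SE 0.0796) and an r of −0.245 with IL1B and 0.229 with TNF. Of the glucocorticoid genes, the kinase SGK1 was near IL1B within groups (r = 0.628, rank 128), and the receptor NR3C1 less so (r = 0.405).

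Markers of other blood cells had lower r with IL1B than the neutrophil markers CSF3R, TGM3 and MMP9 had. CD163L1 and CCR3, however, had a higher r than the neutrophil markers QSOX1 (0.0642) and PGLYRP1 (−0.408). The within-group r with IL1B was 0.219 for CD163L1, a gene of bovine gamma delta T cells, −0.0906 for BANK1 of B cells, 0.160 for CCR3 of eosinophils and −0.0463 for FCER1A of basophils. The platelet genes GP9 and ITGA2B had an r of −0.609 and −0.184. With TNF, the same genes had an r of −0.181, 0.348, −0.435, 0.266, −0.0906 and −0.118 in that order of cell types. The fertility log2 fold changes were 0.53 (SE 0.305) for CD163L1, −0.16 (SE 0.0993) for BANK1, 0.32 (SE 0.180) for CCR3 and −0.28 (SE 0.159) for FCER1A. Those of GP9 and ITGA2B were 0.63 (SE 0.318) and 0.28 (SE 0.122). Each of these cell types was represented by 1 or 2 markers, so its share in the libraries was not tested.

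**Figure D5:**
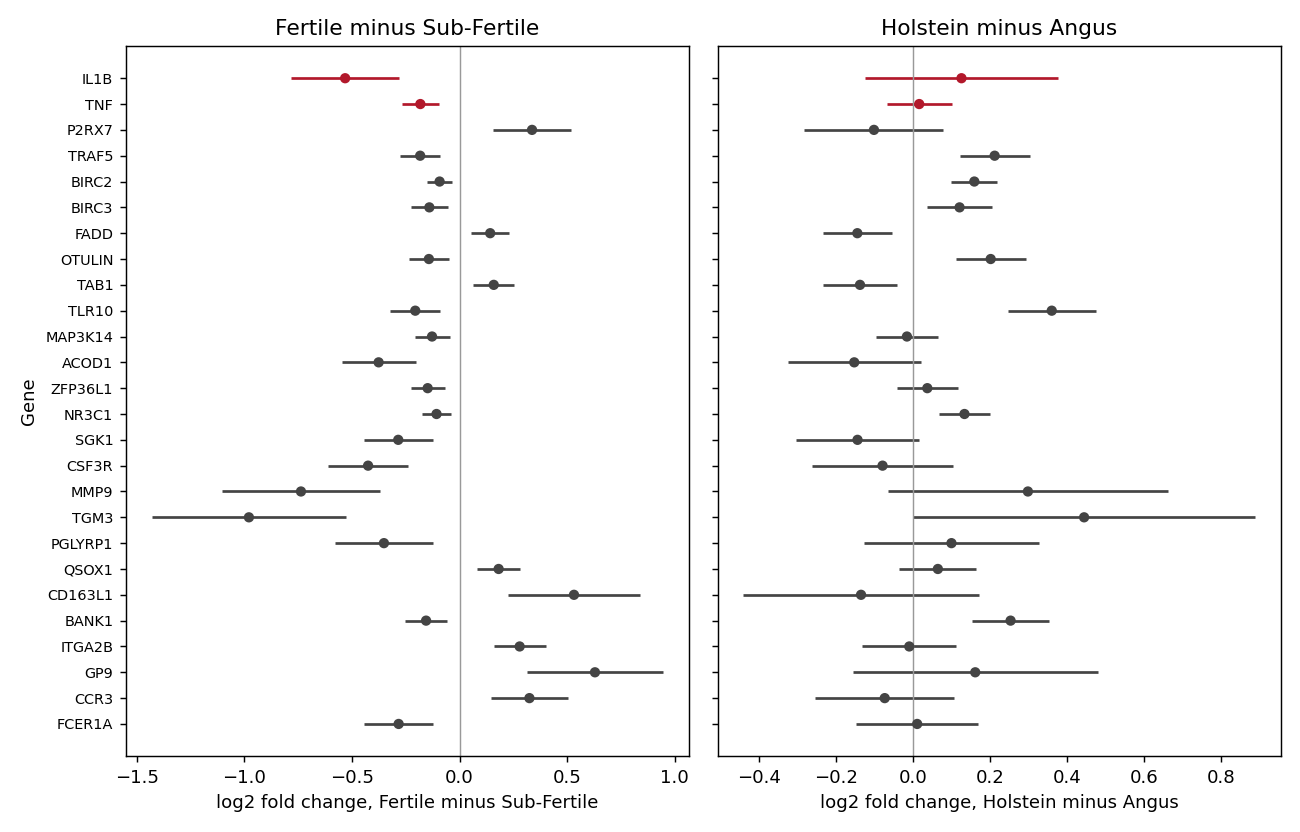
Log2 fold change between fertility groups, Fertile minus Sub-Fertile (left), and of Holstein over Angus heifers (right) for IL1B and TNF in red and the 24 listed genes with a symbol in grey, with lines for 1 standard error on each side. IL1B (−0.53) and TNF (−0.18) lie left of 0 for fertility, where genes were named by this contrast, and both lie within 1 standard error of 0 for breed.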

How the data were processed

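White blood cell RNA of 22 heifers was sequenced from stranded mRNA libraries. Per the paper's methods the authors aligned reads to ARS-UCD1.2 with HISAT2, used SAMtools and biobambam2 to drop secondary, unmapped and duplicate reads, and obtained fragment counts for Ensembl genes from featureCounts. HISAT2, SAMtools and this build also stand in the submitters' processing notes. No source used here states the strand setting of featureCounts. The values deposited are raw counts per gene for each heifer, with no normalization.

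From these counts, genes were kept where CPM exceeded 1 in at least 5 heifers (13535 of 27607, holding at least 99.9% of each library's counts). 4389 genes had no count in any heifer. CPM was the count scaled by the library's total. Models were fitted with edgeR 4.0.16 in R 4.3.3 (robust quasi-likelihood fit, total counts as library sizes) with breed and fertility as terms, and with their interaction for that test. Adjusted p-values are Benjamini-Hochberg over the 13535 genes, the threshold was 0.05, and the standard error was taken as the log2 fold change over the square root of F. DESeq2 1.42.0 was an alternative. Intervals are 95% normal intervals of the fitted log2 fold change. Correlations used log2(CPM + 1), a pseudocount of 1 CPM, with group means taken out and 100000 resamples, two-sided. The fit was also run on simulated counts with known changes, drawn independently for each library and so without close pairs. The outcome of that run is not reported here.

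Close pairs were mutually nearest libraries with a biological coefficient of variation under 0.5 of the median over pairings (0.171), from genes above a mean of 20 CPM. P-values measure the spread between heifers, each sampled once. Symbols and coordinates came from 1227 rows of a supplementary list ordered by the fertility contrast, whose other columns, the authors' own fold changes and p-values, were not used. The 2 genes and all lists were chosen with earlier results of these data known. Named genes were IL1B and TNF, in each list up to 4 of the most abundant and 2 with the smallest p for fertility and for breed, any passing adjustment, and the 5 genes with a symbol most like each cytokine. FADD and PGLYRP1 were named to complete their lists. Sequences of the 2 genes were not analysed here. The alternatives tried were other library sizes, filters and tools, close pairs as blocks, heifers left out, a depth term, no robust step and subsets of heifers.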

Additional observations from a re-analysis of the deposited data

Results flagged for a closer look

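Among 34 genes in 4 groups (136 searches), 6 values lay far from the other heifers of their group by Dixon's ratio, which chance passes in about 1 in 20 groups. The 6 flags are thus no more than chance alone would give. Of these, 3 were high values in heifer 16, the heifer with the highest IL1B, within Angus Sub-Fertile heifers: TGM3 at 115 CPM (nearest other heifer 37.2), SLC16A12 at 9.05 CPM (nearest 3.29) and BIRC3 at 540.4 CPM (nearest 399). P2RX7 stood at 5.37 CPM in heifer 8, the heifer with the lowest IL1B, with the nearest Holstein Fertile heifer at 3.57 CPM. PGLYRP1 stood at 2.50 CPM in heifer 14 (nearest Angus Sub-Fertile heifer 1.44). AP3M2 stood at 5.00 CPM in heifer 18, which also had the lowest TNF, with the nearest Angus Fertile heifer at 8.66 CPM. TGM3 and SLC16A12 were among the genes most like IL1B, and AP3M2 among those most like TNF. Extreme values of these genes in heifers 16 and 18 therefore partly follow from how the genes were picked, and are a description only.

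For 2 listed genes the fertility difference differed between breeds at an unadjusted p under 0.05 and did not pass adjustment over all genes. The interaction was −0.34 for ZFP36L1 (edgeR quasi-likelihood adjusted p = 0.462) and 1.18 for CD163L1 (edgeR adjusted p = 0.478). An unadjusted p under 0.05 was reached by 10.4% of all tested genes for this term, and by 5.46% of the tested genes with a symbol.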

How the results depend on the processing

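The fertility log2 fold change of IL1B stayed below 0 under 11 of 12 alternatives and without any 1 heifer (−0.64 to −0.42), and was 0.0480 with the neutrophil markers in the model. That of TNF was −0.21 to −0.14 without 1 heifer and below 0 in all alternatives, but with close pairs as blocks it was only −0.0146 (SE 0.0518). Both genes were chosen on this contrast, so a steady sign is a description and no support for a difference. Genes at an unadjusted p under 0.05 for fertility numbered 355 of 13535. Without the filter they numbered 750, but there every gene with a count was tested, so the total was larger. They numbered 640 with close pairs as blocks, 124 without heifers 10 and 18, 1247 in Holstein heifers alone, and 141 to 580 without 1 heifer. The breed log2 fold change of IL1B was −0.41 with close pairs as blocks, −0.0528 in Fertile heifers alone and 0.0150 to 0.24 without 1 heifer. That of TNF was −0.0131, −0.0982 and −0.0223 to 0.0537. Genes at an unadjusted p for breed numbered 1440, but 233 with blocks, 661 in Sub-Fertile heifers alone and 1021 to 2188 without 1 heifer. After adjustment for breed, edgeR called 0 and DESeq2 10 genes, neither cytokine among them. The interaction of TNF was 0.0731 with blocks and −0.31 to −0.14 without 1 heifer, and that of IL1B was −0.60 to −0.14 without 1 heifer. Genes at an unadjusted p for the interaction numbered 1410, but 935 with blocks, 2333 without heifers 10 and 18 and 959 to 2011 without 1 heifer, and 1 gene passed adjustment with blocks. The r of IL1B with TNF was 0.0543 with group means left in and −0.324 to −0.115 without 1 heifer. The r of TNF with depth was −0.125 with close pairs averaged, −0.117 with TMM scaling and −0.0949 to 0.248 without 1 heifer, and that of IL1B with depth was −0.0805 to 0.319. The terms with the neutrophil markers and with depth, and leaving out heifers in the marker correlations and the order of group means, were added after seeing the data. The causes of these shifts were not tested. The labels give no replicate numbers shared between groups, so the close pairs of libraries were the only pairing fitted.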
